A study of Oryza sativa with 4 samples.

Results

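In leaves of rice seedlings with silenced OsABA8ox3, 70 probe sets gave a signal more than 2-fold lower than in the wild type both before and after dehydration with polyethylene glycol (PEG). They were chosen by one rule from 57258 rice probe sets of the Affymetrix Rice Genome Array. A probe set had to be at or above a log2 signal of 6 on each of the 4 arrays, as 20916 were, and its RNAi minus WT difference had to be below -1 on the log2 scale at 0 h and again at 2 h of PEG. The genotype differences therefore chose the members, and they are given below as a description with no test. The share of probe sets more than 2-fold lower in RNAi was 2.13% before PEG and 1.71% after it, and 0.335% were lower in both comparisons. For comparison, 273 probe sets (1.31%) were more than 2-fold higher in RNAi at both times by the mirrored rule. This balance depended on the scaling of the arrays, with 97 lower and 217 higher when the median of all probe sets set the scale, and 169 lower and 111 higher when the hybridization controls did.

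The 4 arrays covered both genotypes, each sampled at 0 h and at 2 h after seedlings were placed in 20% PEG, which draws water from the plant through the roots. WT was the rice cultivar Zhonghua 11 (ZH11, carrying the transformation vector according to the methods of the study), and RNAi was a single line, RNAi-9, made in ZH11 by RNA interference against OsABA8ox3. All 4 samples were total RNA from leaves of seedlings grown in the same greenhouse regime. One array was run per condition, so no value below has a replicate error, and no array at 2 h without PEG was analysed here, so PEG and the passing of 2 h cannot be told apart.

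OsABA8ox3 encodes an abscisic acid (ABA) 8'-hydroxylase, the enzyme type that starts the main breakdown route of the hormone. ABA builds up in leaves that lose water, closes stomata and reprograms transcription, and growth-related processes such as the making of ribosomes are commonly slowed under osmotic stress. Ribosomal proteins and the enzyme that attaches sugar chains to new proteins in the endoplasmic reticulum both serve protein synthesis, and genes for such complexes are often expressed together.

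The annotation used here ties no probe set to OsABA8ox3, so the silencing itself was not checked on these arrays. The leaf identity was checked on markers of mesophyll cells. Rubisco activase (RCA) reached a log2 signal of 15.54, 15.34, 15.69 and 15.53 on its brightest probe set in WT at 0 h, WT at 2 h, RNAi at 0 h and RNAi at 2 h. The 9 mesophyll probe sets that passed the signal minimum had a median RNAi minus WT difference of 0.11 at 0 h and 0.19 at 2 h. Scaling by the hybridization controls turned the median at 2 h to -0.23, and scaling by the median of all probe sets turned that at 0 h to -0.0073. Of the root list, 1 of 3 probe sets passed the signal minimum, that of the silicon channel gene Lsi1, with log2 signals of 10.07, 9.19, 10.17 and 8.51 in the same order of arrays. The sodium transporter gene HKT1.5 had 5.78, 4.79, 5.95 and 2.32, and the silicon transporter gene Lsi2 stayed between 0 and 1.75. Of the markers of dividing cells, 1 of 9 passed (PCNA, -0.06 and -0.07). The 6 probe sets of defence genes that passed had a median difference of 1.03 at 0 h and 0.06 at 2 h. The arrays were alike in median log2 signal (5.32 to 5.45). The log2 distance between the 3' and 5' control probe sets was 2.33 to 2.74 for GAPDH and 4.28 to 4.74 for actin. On every array the 3' control probe sets were thus far above the 5' ones. The mean log2 signal of the hybridization controls ran from 11.77 in WT at 2 h to 12.20 in RNAi at 2 h. The part of any of these values in the members' differences was not tested. In whole leaves, fewer cells of a type and less RNA per cell cannot be told apart.

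Before PEG the 70 members had a median log2 signal of 10.01 in WT (7.44 to 13.59) and of 8.62 in RNAi (6.37 to 12.47). After PEG the medians were 9.11 in WT (7.28 to 13.69) and 7.59 in RNAi (6.08 to 12.06). All 20916 probe sets tested had medians of 9.60 at 0 h and 9.41 at 2 h in either genotype. In WT the members thus sat slightly above the typical probe set at 0 h, and in RNAi they sat below it at both times.

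The median RNAi minus WT difference of the members was -1.31 at 0 h (-3.64 to -1.01) and -1.43 at 2 h (-3.81 to -1.004), against 0.0081 and -0.0215 over all probe sets tested. More than 4-fold lower were 12 members before PEG, 12 after it and 7 in both comparisons. The difference was larger at 2 h in 38 of the 70, and in 51 the differences at the 2 times lay within 0.5 of each other on the log2 scale (72.9%), close to the 71.4% of all probe sets tested. Both WT arrays were above both RNAi arrays in 50 members (71.4%), compared with 10.6% of all probe sets tested, a count that the rule itself favours.

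**Figure D1:**
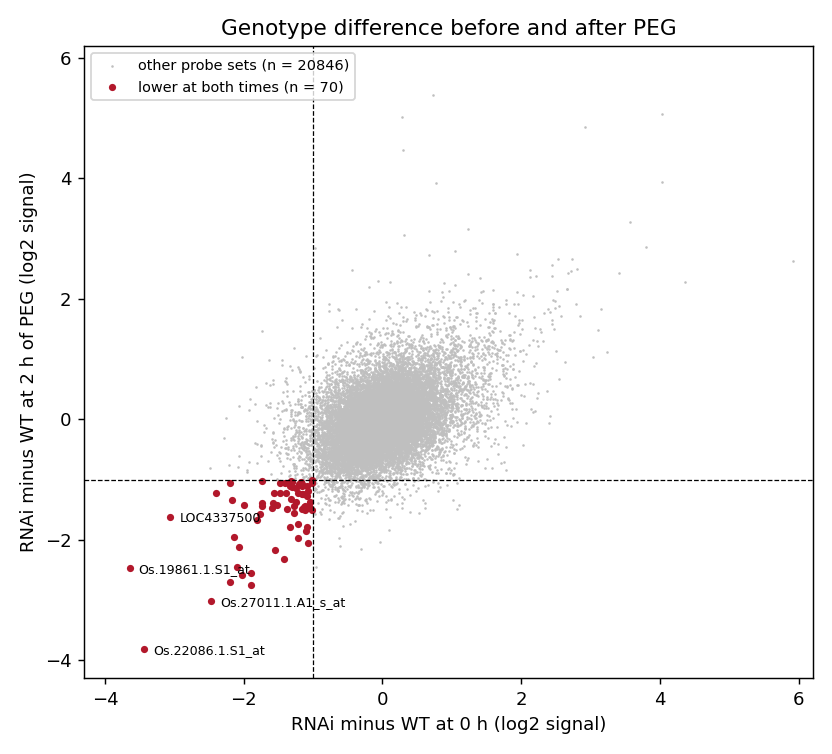
RNAi minus WT difference in log2 signal at 0 h (horizontal axis) and at 2 h of PEG (vertical axis) for each of the 20916 probe sets that passed the signal minimum, with 1 array per condition. The 70 members (red) lie beyond -1 on both axes (dashed lines) by the rule, and Os.22086.1.S1_at and Os.19861.1.S1_at lie farthest out, at -3.44 and -3.81 and at -3.64 and -2.47.

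The pairing of probe sets with genes named few of them. Of the 70 members, 49 were paired with 1 gene each, all different, and 21 were not in the annotation. The genes were protein-coding for 46 members, miscellaneous RNAs for 2 and a pseudogene for 1. A gene name beyond a locus number was available for 4 members (5.71%), compared with 2273 of the 20916 probe sets tested (10.9%). Those 4 were the ribosomal protein genes RPS4 and RPS3A, the oligosaccharyltransferase gene OST1A and MRL7, a gene for a plastid protein. The others are given by locus number (LOC) or by probe set, and no function is assigned to them. The members' genes were scattered along the gene order, with no pair within 10 genes of each other among the 49 placed. The closest pair, LOC4337486 and LOC4337500, was 17 genes apart.

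RPS4 and RPS3A encode proteins of the small subunit of the cytosolic ribosome. The RPS3A member (Os.5282.1.S2_at) had a log2 signal of 7.88 in WT at 0 h, 8.75 in WT at 2 h, 6.61 in RNAi at 0 h and 7.30 in RNAi at 2 h. RNAi was lower by 2.42-fold at 0 h and by 2.73-fold at 2 h, while the signal was higher after PEG by 0.87 in WT and by 0.70 in RNAi on the log2 scale. The RPS4 member (Os.12238.2.S1_x_at) had log2 signals of 11.61, 11.67, 10.60 and 10.66 in the same order of arrays. It was one of the members nearest to the limit of the rule, 2.02-fold lower at each time, and it differed by less than 0.1 on the log2 scale between 0 h and 2 h in either genotype. For both genes each RNAi array lay below each WT array.

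The other probe sets of these genes were not chosen by the rule, although they come from the same 4 arrays and are no replicates. The other 3 probe sets of RPS3A had RNAi minus WT differences of -0.80, -1.05 and -0.92 at 0 h and of -0.71, -0.74 and -0.70 at 2 h. The other probe set of RPS4 had differences of -0.80 at 0 h and -0.71 at 2 h. All of them were thus below 0 at both times, and only 1 of these values was beyond -1. After PEG the other 3 probe sets of RPS3A changed by -0.06, -0.01 and 0.06 in WT and by 0.03, 0.30 and 0.28 in RNAi. The higher signal of the RPS3A member after PEG was thus smaller or absent on them.

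Ribosomal proteins as a list were looked at after these values had been seen, so the list is no independent evidence. It held the genes named as ribosomal proteins in the annotation, whatever their compartment. With the 2 members left out, 33 probe sets of 24 genes passed the signal minimum. They still include the further probe sets of RPS3A and RPS4 given above, among them an RPS3A probe set at -1.05 at 0 h. All 33 were below 0 at 0 h (49.2% of all probe sets tested), with a median of -0.69 (-1.12 to -0.13), and 27 were below 0 at 2 h (52.3% of all), with a median of -0.45 (-0.74 to 0.60). More than 2-fold lower were 4 of the 33 at 0 h (2.13% of all) and 0 at 2 h (1.71% of all), a comparison of single arrays with no p-value. The lower signal of the list was therefore small for most of its probe sets. It was smaller at 2 h on the deposited scale, but larger at 2 h (a median of -0.88 against -0.74 at 0 h) when the hybridization controls set the scale.

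The probe sets above 0 at 2 h, picked after their values were seen, included those of RPL18 (-0.88 at 0 h and 0.60 at 2 h) and RPL27 (-1.12 and 0.23 on one of its probe sets), both proteins of a large ribosomal subunit. Further RPL27 probe sets had 0.008 and 0.23 at 2 h. A probe set each of rpl5 and RPL10A had 0.37 and 0.14 at 2 h, while the other RPL10A probe set had -0.49. The annotation also gives RPL18 and RPL27 the names CL18 and CL27, and the compartment of their proteins was not examined. Over the list without the members, the median change after PEG was -0.18 in WT and 0.18 in RNAi on the deposited scale. The list's change after PEG was not computed under the other scalings, and its sign depends on them. With the hybridization controls as the scale, the median change of all probe sets tested was -0.15 in WT and -0.50 in RNAi. On the deposited scale it was -0.26 and -0.24. Under the other scalings of the arrays the list's median RNAi minus WT difference ranged from -0.81 to -0.69 at 0 h and from -0.88 to -0.43 at 2 h, with 33 and 27 to 32 probe sets below 0.

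OST1A encodes ribophorin I, a subunit of oligosaccharyltransferase, the complex that transfers N-glycans to nascent proteins in the endoplasmic reticulum. Its member (Os.11245.1.S1_at) had a log2 signal of 7.78 in WT at 0 h, 7.54 in WT at 2 h, 6.37 in RNAi at 0 h and 6.48 in RNAi at 2 h. The difference was 2.66-fold at 0 h and 2.08-fold at 2 h, and the RNAi values were close to the signal minimum of 6. The other OST1A probe set had log2 signals of 11.17, 11.09, 10.79 and 10.38, with differences of -0.38 and -0.71. The 2 probe sets of this gene thus pointed the same way, and the difference was larger at 0 h on one and at 2 h on the other.

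The genes of oligosaccharyltransferase subunits were likewise gathered after the values had been seen. With the member left out, all 10 probe sets of 9 genes were below 0 at both times, compared with 32.6% of all probe sets tested, with a median of -0.46 at 0 h (-0.75 to -0.13) and -0.62 at 2 h (-0.96 to -0.19). None of the 10 was more than 2-fold lower at either time. The 10 still include the other OST1A probe set (-0.38 and -0.71). OST48 had differences of -0.75 and -0.80, and the homolog of OST1A, OST1B, of -0.43 and -0.89. STT3A, which encodes a catalytic subunit, had -0.50 and -0.96 on one probe set and -0.13 and -0.21 on the other. DAD1, a small subunit of the complex, had -0.50 and -0.63. All 10 probe sets stayed below 0 at both times under each scaling tried, with medians of -0.58 to -0.46 at 0 h and -1.05 to -0.58 at 2 h.

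**Figure D2:**
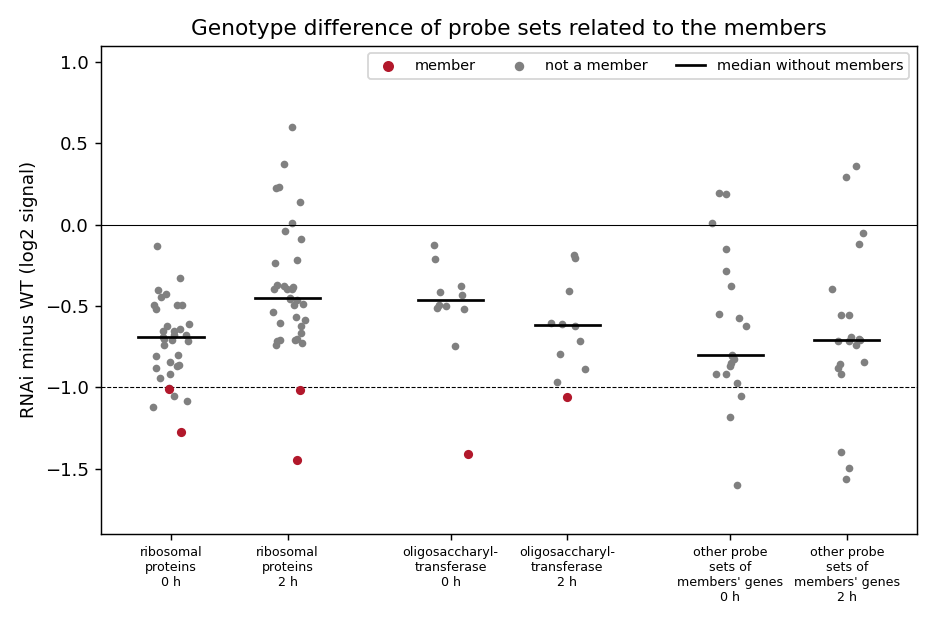
RNAi minus WT difference in log2 signal (vertical axis) at 0 h and at 2 h of PEG for probe sets of ribosomal proteins, of oligosaccharyltransferase subunits and of the members' own genes, with each point a probe set that passed the signal minimum. Members are red and were chosen by the rule, the other probe sets are grey, and the bars mark the medians without the members, at -0.69 and -0.45, -0.46 and -0.62, and -0.80 and -0.71.

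MRL7 is known from Arabidopsis as a plastid protein needed for the expression of plastid genes and for chloroplast development. Its member (Os.8865.2.S1_x_at) had a log2 signal of 9.32 in WT at 0 h and 8.53 in WT at 2 h, compared with 7.15 in RNAi at 0 h and 7.19 in RNAi at 2 h. RNAi was 4.51-fold lower at 0 h and 2.52-fold lower at 2 h, as the WT signal fell by 0.80 on the log2 scale after PEG while the RNAi signal moved by 0.04. A probe set with the same cluster number in its identifier, Os.8865.1.S1_x_at, is paired with another gene and had differences of 0.11 and 0.07. Os.8865.4.S1_x_at (0.45 and 0.81) and Os.8865.4.S1_at (0.67 and -0.10) also carry that number. Both are unpaired and were left out by the signal minimum. Probe sets ending in _x_at may bind transcripts of related genes, and 9 of the 70 members (12.9%) were of this type, close to the 13.6% among all probe sets tested.

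Across all members, 31 further probe sets were paired with the genes of 19 members, and 20 of them (12 genes) passed the signal minimum. Of these 20, 15 (9 genes) were below 0 at both times, a share of 75% compared with 32.6% of all probe sets tested. Their median difference was -0.80 at 0 h (-1.60 to 0.20) and -0.71 at 2 h (-1.56 to 0.36), and 3 were more than 2-fold lower at 0 h and 3 at 2 h. Most further probe sets of the same genes were thus lower in RNAi. Some carry the same cluster number as their member, among them all 3 that were more than 2-fold lower at 0 h. LOC4326256, LOC4344909 and RPS3A each supplied several of the 20. The 20 are therefore not independent of the members or of each other. The 3 further probe sets of LOC4326256 had differences of -0.83 and -1.39, -1.60 and -0.92, and -0.97 and -1.56, each beyond its member (-1.48 and -1.23) at 1 of the times.

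Other genes were not lower on all of their probe sets. The second probe set of LOC4334958 had differences of 0.01 at 0 h and -0.12 at 2 h, whereas its member had -1.06 and -1.45. LOC4328841 had 0.20 and -0.05 on one further probe set and -0.87 and -1.50 on another. The further probe sets of LOC4330735 (-0.92 and 0.36) and LOC4339342 (-0.55 and 0.30) were lower at 0 h and higher at 2 h. For these genes the difference depended on which probe set was read.

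The largest differences belonged mostly to probe sets without a gene. Os.22086.1.S1_at had a log2 signal of 13.27 in WT at 0 h, 11.42 in WT at 2 h, 9.83 in RNAi at 0 h and 7.61 in RNAi at 2 h. It was 10.8-fold lower in RNAi at 0 h and 14.0-fold lower at 2 h, and even the higher RNAi array lay below the lower WT array. Os.19861.1.S1_at had 12.62, 11.61, 8.97 and 9.14 in the same order, 12.5-fold lower at 0 h and 5.54-fold lower at 2 h. Its RNAi values were nearly level across PEG while its WT value fell by 1.01 on the log2 scale.

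Os.27011.1.A1_s_at had log2 signals of 11.22, 10.13, 8.76 and 7.11, and its difference went from 5.53-fold at 0 h to 8.07-fold at 2 h. Os.23790.1.S1_at had 9.78, 9.05, 7.59 and 6.35, with differences of 4.58-fold and 6.52-fold. Os.27525.1.A1_at had 9.94, 9.20, 7.91 and 6.61, with differences of 4.09-fold and 6.03-fold. In these 3 the order of the arrays was the same, with WT at 0 h highest and RNAi at 2 h lowest.

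The same order held for Os.27547.1.S1_s_at, which had log2 signals of 11.10, 10.18, 9.00 and 7.73 and was lower by 4.27-fold at 0 h and 5.48-fold at 2 h. It is unpaired, but Os.27547.3.A1_at, which carries the same cluster number, is paired with P5CS2, a gene of proline synthesis. That probe set had 7.83, 8.003, 6.15 and 4.66, so it was left out by the signal minimum, with differences of -1.68 and -3.35. As Os.8865.1.S1_x_at shows, a shared cluster number does not mean a shared gene, and the P5CS2 probe set was singled out after its values were seen. Os.16327.1.S1_at had 10.73, 9.95, 8.66 and 7.84 and was 4.18-fold and 4.35-fold lower, almost the same at both times. Os.9762.2.S1_at had 13.31, 12.08, 11.41 and 9.33, and its difference grew from 3.72-fold to 6.72-fold.

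**Figure D3:**
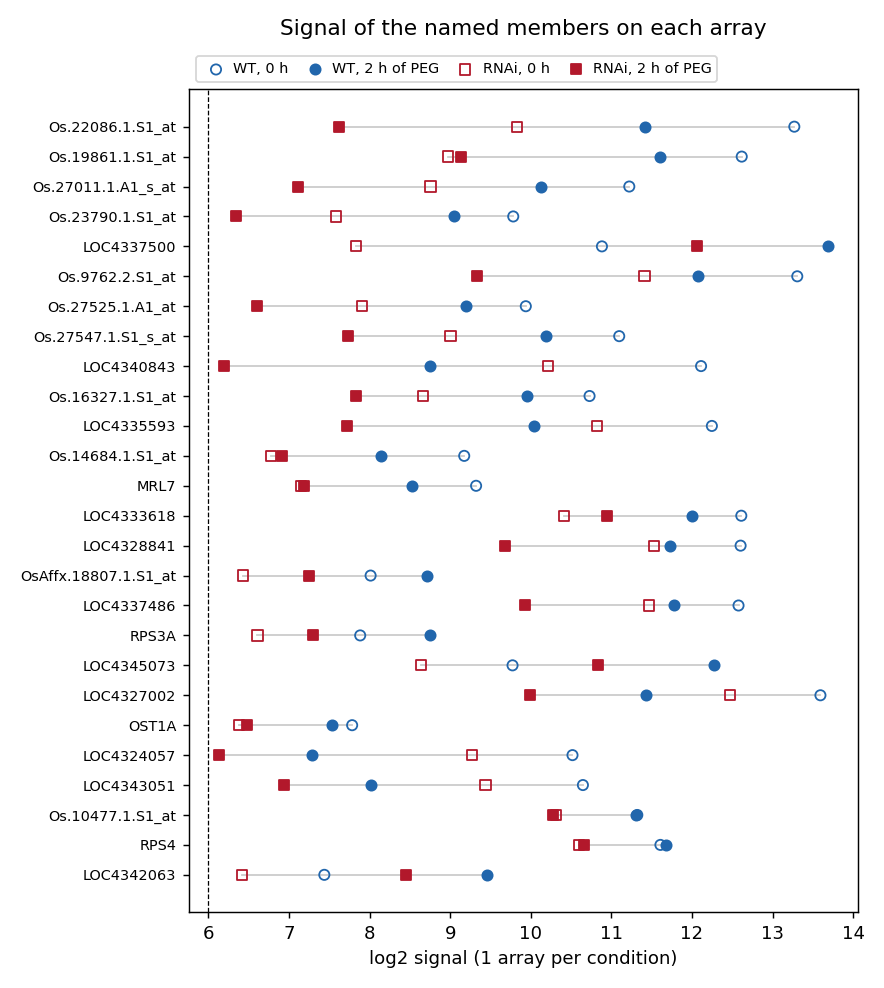
Log2 signal (horizontal axis) on each of the 4 arrays for the 26 members described by name or probe set, ordered by the mean of their differences. Circles are WT and squares RNAi, open at 0 h and filled at 2 h of PEG, and the dashed line marks the signal minimum of 6. For Os.22086.1.S1_at the arrays run from 7.61 to 13.27, and for LOC4337500 the RNAi array at 2 h (12.06) lies above the WT array at 0 h (10.88).

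The change after PEG compares the times within a genotype. It was not set by the rule, but it is computed from the same arrays and is not independent of the rule. In WT, 28 of the 70 members (40%) were more than 2-fold lower after PEG, compared with 14.2% of all probe sets tested, and 3 were more than 2-fold higher, compared with 11.6%. In RNAi, 30 members (42.9%) were more than 2-fold lower, compared with 13.2%, and 3 were more than 2-fold higher, compared with 10%. The median change of the members was -0.80 in WT (-3.36 to 2.80) and -0.77 in RNAi (-4.02 to 4.24), against -0.26 and -0.24 over all probe sets tested. The members thus lay mainly on the side of lower signal after PEG in both genotypes, with 60 below 0 in WT (63% of all tested) and 54 below 0 in RNAi (62.7% of all).

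By pattern, 23 members were more than 2-fold lower after PEG in both genotypes (7.9% of all probe sets tested), 5 in WT only (7.14%, compared with 6.33% of all), 7 in RNAi only (10%, compared with 5.3% of all), and 3 were more than 2-fold higher in both (7.89% of all). The remaining 32 (45.7%) stayed within 2-fold in both, compared with 66.8%. The probe sets higher in RNAi at both times, which share all 4 arrays with the members, were the other way round, with 102 of 273 (37.4%) more than 2-fold higher and 20 (7.33%) more than 2-fold lower after PEG in WT. Of the 376 probe sets lower in RNAi at 0 h only, 143 (38.0%) were more than 2-fold lower after PEG in WT and 15 (3.99%) in RNAi. Of the 287 lower at 2 h only, 53 (18.5%) were more than 2-fold lower after PEG in WT and 158 (55.1%) in RNAi, an imbalance that choosing by 1 time builds in. These counts are given side by side with no test of their difference.

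The members whose signal fell most after PEG, by the mean of both genotypes, were genes known only by locus. LOC4340843 had a log2 signal of 12.11 in WT at 0 h, 8.75 in WT at 2 h, 10.21 in RNAi at 0 h and 6.19 in RNAi at 2 h. Its log2 change after PEG was -3.36 in WT and -4.02 in RNAi. LOC4324057 had 10.52, 7.28, 9.27 and 6.13, with changes of -3.24 and -3.14. For both genes the fall within a genotype exceeded the difference between genotypes, and RNAi at 0 h was above WT at 2 h.

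LOC4335593 had log2 signals of 12.25, 10.04, 10.82 and 7.72, and its RNAi minus WT difference went from -1.43 at 0 h to -2.32 at 2 h. LOC4343051 had 10.65, 8.02, 9.44 and 6.94, with a difference of -1.21 and then -1.08. LOC4327002, the member with the highest signal in WT at 0 h, had 13.59, 11.43, 12.47 and 9.99. These 3 also had a higher signal in RNAi before PEG than in WT after it. Over the 70 members, RNAi at 0 h was below WT at 2 h in 53 (75.7%, compared with 38.1% of all probe sets tested), a count that the rule favours, and within 0.5 of it on the log2 scale in 25 (35.7%, compared with 46.7%).

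Only 3 members were more than 2-fold higher after PEG, in both genotypes each. LOC4337500 had a log2 signal of 10.88 in WT at 0 h and 13.69 in WT at 2 h, compared with 7.83 and 12.06 in RNAi. Its change was 2.80 in WT and 4.24 in RNAi on the log2 scale, and RNAi was 8.32-fold lower at 0 h and 3.08-fold lower at 2 h. The WT array at 0 h lay between the RNAi arrays. LOC4345073 had 9.77, 12.28, 8.64 and 10.83, a change of 2.51 in WT and 2.19 in RNAi. LOC4342063 had 7.44, 9.46, 6.42 and 8.45, with nearly equal changes of 2.02 and 2.03. The next largest increases were those of the RPS3A member, given above, and of OsAffx.18807.1.S1_at, with log2 signals of 8.01, 8.71, 6.42 and 7.24. Other probe sets of RPS3A changed less after PEG.

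**Figure D4:**
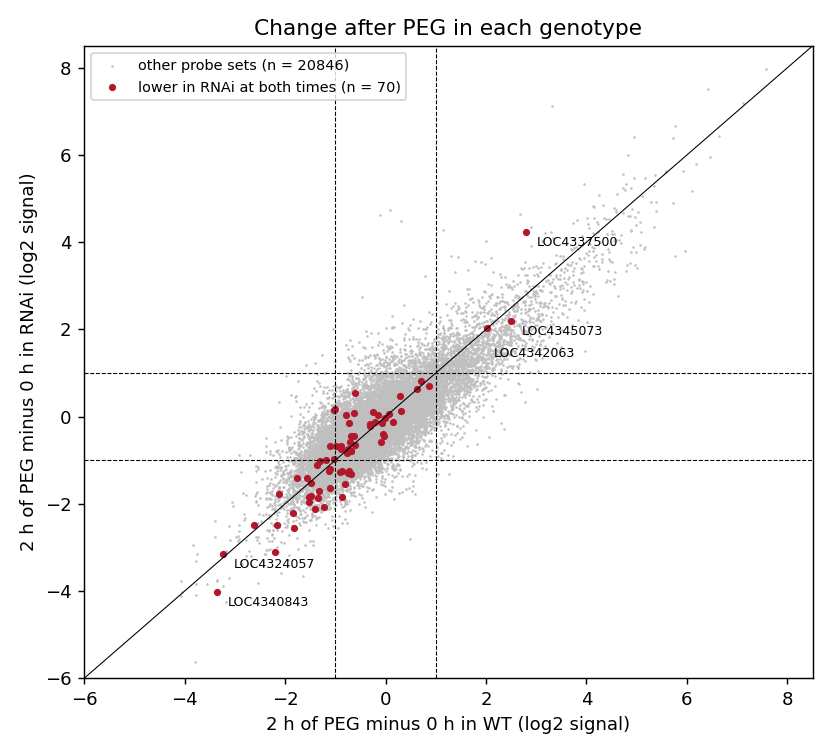
Change in log2 signal from 0 h to 2 h of PEG in WT (horizontal axis) and in RNAi (vertical axis) for each of the 20916 probe sets that passed the signal minimum, with the 70 members in red, dashed lines at a 2-fold change and a solid line where the changes are equal. The members lie mostly at lower left, with medians of -0.80 and -0.77, and 3 lie beyond 2-fold at upper right.

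Between the genotypes, the change after PEG differed by less than 0.5 on the log2 scale in 51 members (72.9%). That share was close to the 71.4% of all probe sets tested. The RNAi minus WT difference of the changes had a median of -0.03 for the members and -0.03 for all probe sets tested. It was negative in 38 of 70 (54.3%), compared with 52.8% of all. By arithmetic this is the same quantity as the genotype difference at 2 h minus that at 0 h. The 51 and the 38 are therefore the counts given above for the genotype differences and no further result. A change more than 2-fold more positive in RNAi was seen in 4 members (5.71%), compared with 3.46%, and one more than 2-fold less positive in 0, compared with 3.28%, again from single arrays with no p-value. A member with such a difference of changes has unequal genotype differences at the 2 times, so the rule bears on this count as well. Both counts also depend on the scale of the arrays and were not made under the other scalings. With the hybridization controls as the scale, the median change of all probe sets tested was -0.15 in WT and -0.50 in RNAi. On the deposited scale it was -0.26 and -0.24, and LOC4328841, at -0.97, was already close to the limit of -1.

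The 4 members with a change more than 2-fold more positive in RNAi were LOC4337500, Os.19861.1.S1_at, Os.14684.1.S1_at and LOC4333618. Os.14684.1.S1_at had a log2 signal of 9.17 in WT at 0 h, 8.14 in WT at 2 h, 6.78 in RNAi at 0 h and 6.92 in RNAi at 2 h, and its difference went from 5.27-fold to 2.34-fold. LOC4333618 had 12.61, 12.00, 10.41 and 10.95, and its difference went from 4.61-fold to 2.07-fold. In both the WT signal was lower and the RNAi signal higher after PEG, so the genotypes came closer.

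The difference grew most in Os.9762.2.S1_at, LOC4335593, LOC4328841 and LOC4337486. LOC4328841 had log2 signals of 12.60, 11.73, 11.53 and 9.68, 2.11-fold lower in RNAi at 0 h and 4.13-fold lower at 2 h. LOC4337486 had 12.58, 11.78, 11.47 and 9.92, 2.16-fold and then 3.62-fold lower. In all 4 the signal was lower after PEG in both genotypes and more so in RNAi.

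The limits of the rule cut through a continuous range. Just inside the fold limit were LOC4342063 (-1.02 at 0 h and -1.004 at 2 h), Os.10477.1.S1_at (-1.01 and -1.04) and RPS4 (-1.01 and -1.02). Just outside were LOC4339572 (-1.53 and -0.998), LOC4350631 (-1.03 and -0.998) and LOC4348460 (-0.994 and -1.07). Os.10477.1.S1_at had log2 signals of 11.32, 11.31, 10.31 and 10.27, level across PEG in both genotypes. At the signal minimum, the lowest array was 6.08 for Os.28949.1.S1_at, 6.13 for LOC4324057 and 6.19 for LOC4340843 inside, and 5.96 for LOC4346705, 5.91 for LOC4328047 and 5.88 for LOC4346779 outside. Without a signal minimum the rule took 2173 probe sets, so most probe sets with both differences below -1 had at least 1 array below a log2 signal of 6.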

How the data were processed

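Leaf RNA was hybridized to Affymetrix Rice Genome Arrays, 1 per condition. The authors collected and scaled the signals with GCOS (MAS5, version not given in the sources used here) and deposited them as log2 values, which were used without further normalization. Control probe sets (123) were left out. Members were selected with pandas 2.3.3 and numpy 2.4.6 in Python 3.11.15. The selection code was run on simulated data with little noise and planted differences beyond the fold limit. That run checked the code only and not how reliable the members are. Differences are between single arrays, so no test was made and precision is limited by how few arrays there are. Probe sets were named through the platform annotation and RefSeq gene names (ASM3414082v1). The members and lists were chosen with earlier results of these data known, and the ribosomal and oligosaccharyltransferase lists after their values were seen. Members described are those with a gene name, the 10 with the lowest mean difference, the 3 on either side of the fold limit, the 5 with the largest change each way after PEG, and the 4 whose difference grew or shrank most. Alternatives were the signal minimum, the fold limit, 4 scalings, an added offset, leaving out probe sets of shared sequence, and averaging by gene. Product descriptions, promoters and sequences were not analysed here.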

Additional observations from a re-analysis of the deposited data

Results flagged for a closer look

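In 8 of the 70 members (11.4%, compared with 17% of all probe sets tested) the change after PEG had opposite signs in WT and RNAi. Each rests on 1 array per condition, and the difference between the changes was not tested. Most of the RNAi changes were near 0, such as 0.04 for MRL7 and 0.17 for Os.19861.1.S1_at, and the largest was 0.54 for LOC4333618. Their signs thus depend on the scale of the arrays, and the 8 were not recounted under the other scalings. On the log2 scale the RNAi change minus the WT change was 1.18 for Os.19861.1.S1_at, 1.17 for Os.14684.1.S1_at and 1.15 for LOC4333618. It was 0.84 for MRL7 and 0.35 for OST1A. LOC4330735, LOC4327925 and LOC4350326, named here because their values picked them, had 0.71, 0.19 and -0.28. The changes of LOC4330735 were -0.63 in WT and 0.07 in RNAi, and those of LOC4350326 were 0.16 and -0.12.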

How the results depend on the processing

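No paired analysis was possible because each condition had 1 array, and for the same reason no array could be left out. With a signal minimum of 5, more probe sets could enter, and of 104 members 5 were more than 2-fold higher and 44 lower after PEG in WT (42.3%, compared with 40% of the 70) and 7 higher in RNAi. With a minimum of 8, 23 members remained, all among the 70, with 1 higher and 7 lower in WT and 1 higher and 9 lower in RNAi. A 1.5-fold limit gave 592 members, with 25 higher and 127 lower in WT, 25 higher and 150 lower in RNAi, and median changes of -0.57 and -0.54. A 3-fold limit gave 12 members, with 1 higher and 5 lower in WT, 1 higher and 7 lower in RNAi, and a median of -1.26 in RNAi. Scaling to the median of probe sets of at least 8 gave medians of -0.69 and -0.65. Quantile normalization gave 82 members, 5 of them higher in WT, and medians of -0.67 and -0.60. With the hybridization controls as the scale, the median difference of all probe sets at 2 h was -0.44, and there were 169 members, 67 of them among the 70, with 8 higher and 43 lower in WT, 9 higher and 53 lower in RNAi, and medians of -0.58 and -0.65. An added offset of 32 gave a median of -0.98 in RNAi. Averaging by gene gave 38 genes, with 13 lower in WT and 14 in RNAi. For the scalings and the offset the cause was not tested. Under each of the 11 alternatives the share of members more than 2-fold lower after PEG exceeded that of all probe sets tested, in WT and in RNAi, and both medians stayed below 0. The margin depended on the setting. It was narrowest in WT at the 1.5-fold limit, with 21.5% of members compared with 14.2% of all. In RNAi it was narrowest with the hybridization controls as the scale, with 31.4% compared with 23.0%. On the deposited scale the shares in RNAi were 42.9% and 13.2%. The limits are 1 array per condition, 1 RNAi line, and RNAi signals near the minimum of 6 for part of the members.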
